A study of Mus musculus with 6 samples.

Results

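The genes of the mitochondrial import machinery were compared in hearts labelled TET2KO and WT. They are the genes whose symbols start with Tomm or Timm followed by a number, the translocases of the outer and of the inner mitochondrial membrane. Of 49315 genes counted, 26 carry such a symbol, namely 10 Tomm genes, 15 Timm genes and Tomm6os, an RNA antisense to Tomm6. RNA came from mid-ventricular heart tissue of adult mice with a knockout of Tet2 that is specific to endothelial cells (TET2KO), and of wild-type adults (WT), with 3 libraries from separate biological replicates in each group. Every mouse, WT included, had received Angiotensin II, a vasoconstrictor peptide, at 1 mg/kg/day from a subcutaneous osmotic minipump for 28 days, so no untreated heart enters the comparison. The sources used here do not give the driver of the deletion, the exons it removes, or the sex and strain of the mice. Tet2 encodes an enzyme that oxidises 5-methylcytosine in DNA.

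Most mitochondrial proteins are encoded in the nucleus, made in the cytosol and brought in through the translocase of the outer membrane, or TOM complex. In the intermembrane space the small TIM proteins guard hydrophobic precursors. At the inner membrane the TIM22 complex inserts carrier proteins, while the TIM23 complex, with its Hsp70 motor, passes proteins with a presequence to the matrix. The heart, whose contraction depends on oxidative phosphorylation, holds many mitochondria.

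The libraries held 30418909, 26810691 and 27514747 reads for TET2KO 1, 2 and 3, against 24280314, 26569073 and 22124844 for WT 1, 2 and 3. Tet2 was not lower under the knockout label: it had 14.6, 8.01 and 10.4 CPM (reads relative to the size of each library) in the libraries labelled TET2KO, against 4.27, 4.33 and 3.08 in those labelled WT. Its log2 fold change, always given here as TET2KO over WT ± SE, was 1.49 ± 0.29 (edgeR, adjusted p = 0.0065). Counts per gene do not show which exons were read, and endothelial cells are only part of the tissue. The groups are therefore named by their labels alone. Cardiomyocyte genes were abundant in every library: 12 of 12 listed markers were tested, with a summed level of 74730 to 82870 TPM (the authors' values, scaled for length and library) in libraries labelled TET2KO and 88990 to 91490 TPM in those labelled WT. Over all tested genes the fold change rose with transcript length (Spearman rho = 0.61, across 14341 genes, which are not independent replicates). For this reason fold changes are also given with a smooth trend on length and GC content removed, by longest transcript unless another length is named, called the trend-removed value. The trend-removed values of Tet2 did not pass the test, at 0.27 ± 0.17 by longest transcript, 0.38 ± 0.17 by merged exons and 0.29 ± 0.17 by coding length (edgeR, adjusted p = 0.21, 0.095 and 0.18).

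Messages of the import machinery were mostly lower in hearts labelled TET2KO, on both membranes. Of the 26 members, 23 had enough reads to be tested, and 18 of these fell, 3 rose (Tomm34, Tomm40 and Timm29) and 2 passed in neither direction (Tomm70a and Timm44). Among all 14370 genes tested, 29.4% were lower and 33.4% higher in the same edgeR fit (Benjamini-Hochberg adjusted p under 0.05). The members' median log2 fold change was -1.25, against 0.05 for all tested genes. The 18 that fell stood at 25.3 to 55.0% of their level in libraries labelled WT. All 18 were also lower in each of the 3 libraries labelled TET2KO than in every library labelled WT, as were 35.5% of all tested genes, and the 3 that rose were higher without overlap, as were 38.0% of all tested genes. Scaled by total reads, the median of all genes moved to 0.47 and that of the members to -0.82, which leaves them -1.30 from it, as against -1.29 in the fit as counted, and higher calls made up 74.2% of all calls in place of 53.2%. On the deposited TPM the 2 medians were 0.41 and -0.65, and higher calls made up 79.6%. In whole tissue, fewer cells of a type and less RNA per cell cannot be told apart.

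**Figure D1:**
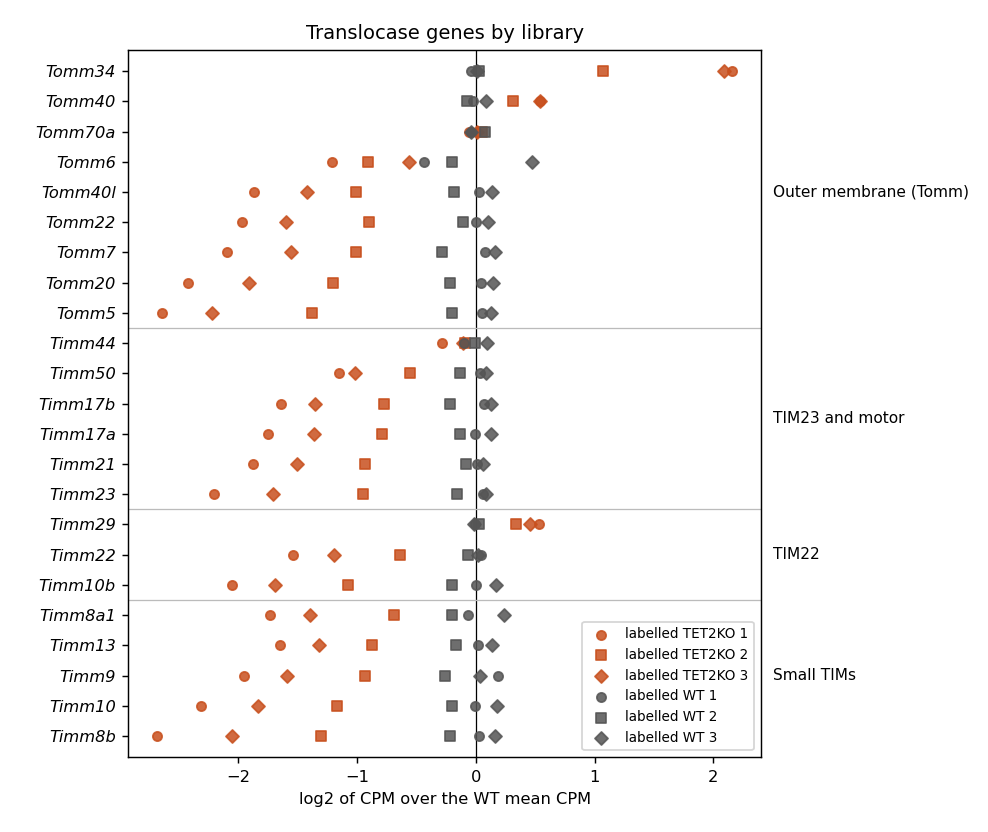
Level of each of the 23 tested translocase genes in each library, as log2 of its CPM over the mean CPM of the 3 libraries labelled WT (orange, libraries labelled TET2KO; grey, libraries labelled WT; marker shape, replicate number). The 18 genes that fell lie left of 0 in all 3 libraries labelled TET2KO, with TET2KO 2 nearest to the WT libraries in 17 of them, and Tomm34 lies farthest to the right.

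The libraries labelled TET2KO did not sit at 1 level. The median deviation of the members from the WT mean, in log2 of CPM plus 0.5, was -1.74, -0.87 and -1.36 in TET2KO 1, 2 and 3, against 0.01, -0.16 and 0.13 in WT 1, 2 and 3. TET2KO 2 was nearest to the WT mean for 17 of the 18 genes that fell, Tomm6 being the exception. It was also nearest for Tomm34, Tomm40 and Timm29, which rose, and for cell type markers in both directions, such as Myh6 (higher) and Myl2 (lower). The same share among all tested genes is not given here, so this order need not be particular to the members. All tested genes together had medians of 0.04, 0.04 and 0.04 in TET2KO 1, 2 and 3. The scaling behind CPM sets the bulk of genes to nearly the same level in every library, so these medians are no contrast to the members. The 35 import partners described below had medians of -1.40, -0.55 and -1.06 in TET2KO 1, 2 and 3, in the same order as the members. The spread of the members' medians among the libraries labelled TET2KO was wider than among those labelled WT.

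With the trend on the longest transcript removed, 16 of the 23 were lower and 2 higher (Tomm34 and Tomm40), where 24.3% and 21.9% of all genes were, and the median was -0.60. With the trend fitted on merged exon length, 16 were lower and 2 higher, where 26.4% and 24.0% of all genes were, and with coding length 15 and 2, where 28.3% and 24.8% were. The medians were -0.80 and -0.46. Across the fit as counted and these 3 versions, 14 members were lower in every version, and Tomm34 alone was higher in every version. The 14 are Tomm5, Tomm20, Tomm22, Tomm40l, Timm8b, Timm10, Timm13, Timm10b, Timm22, Timm23, Timm21, Timm17a, Timm17b and Timm50. The share of all genes that were lower, or higher, in every version is not given here.

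**Figure D2:**
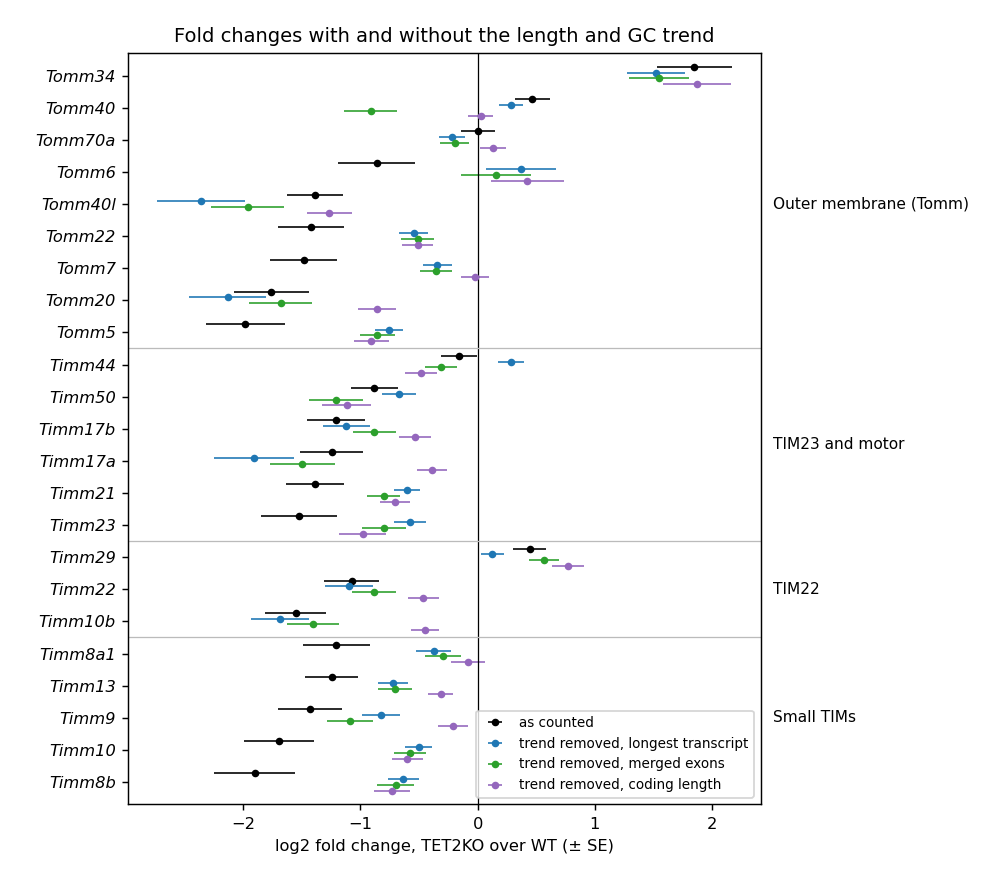
Log2 fold change of the 23 tested genes, TET2KO over WT, ± SE, as counted (black) and with a length and GC trend removed by longest transcript (blue), merged exons (green) or coding length (purple). Most genes keep to the left of 0 in all versions but at very different distances, Tomm20 lying between -2.13 and -0.86, and Tomm40, Tomm6, Timm44 and Tomm70a lie on both sides of 0.

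The sequence around the members' start sites was searched for the letters of 4 motifs. In the RefSeq windows of GRCm38.p6, which run from 250 bases before to 50 after a start, 23 members were found. The GABPA motif CCGGAAGTG, on either strand, was in the windows of 5 of them (Timm10, Timm23, Timm29, Timm8a2 and Tomm70a), against 2.25% of 27025 genes. The NRF1 letters GCGCATGCG were in Timm13, against 1.95% of genes, the YY1 letters AAGATGGCG in Timm50, against 1.64%, and the ERRA letters TCAAGGTCA in Timm8b, against 0.466%, all read on both strands. No member's window held more than 1 kind. GABPA and NRF1 are known as regulators of nuclear genes for mitochondrial proteins, and ERRA as their partner in heart muscle. The GABPA letters of 3 genes are shown because genes that share them had different values: Timm23 fell, Timm29 rose as counted and Tomm70a did not pass. The ERRA letters of Timm8b, which fell, are shown as the single match to that motif among the members. Capitals mark the motif or its reverse complement, 5′ to 3′ on the gene's strand.
Timm23: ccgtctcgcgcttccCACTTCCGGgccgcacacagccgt
Timm29: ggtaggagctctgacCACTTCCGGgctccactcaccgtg
Tomm70a: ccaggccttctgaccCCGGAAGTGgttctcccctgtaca
Timm8b: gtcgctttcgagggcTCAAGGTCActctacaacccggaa
They lie at chr14:32201917-32201955 (minus strand), chr9:21592493-21592531 (plus), chr16:57121619-57121657 (plus) and chr9:50603790-50603828 (plus). A match describes the letters in the window and says nothing of binding. The windows of the members held a median of 18 CpG dinucleotides, against 7 in all 32851 windows. All windows, and the 27025 genes above, include genes not tested here, so these contrasts need not be particular to the members. CpG is the sequence context of the methylation that Tet2 acts on, and methylation was not measured here.

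Of the 9 tested Tomm genes, 6 fell, 2 rose, and the median log2 fold change was -1.39, where 29.4% of all tested genes were lower and 33.4% higher. The group is by symbol: Tomm34, which rose, is not a subunit of the outer membrane. Tomm5, a small subunit that stabilises the TOM complex, fell the most (chromosome 4, 45105208 to 45108114, GRCm38). It had 95.7, 229.5 and 128 CPM in TET2KO 1, 2 and 3, against 619, 518 and 655 CPM in WT 1, 2 and 3, a log2 fold change of -1.98 ± 0.33 (edgeR, adjusted p = 0.0065, trend-removed -0.76 ± 0.12). Even the highest library labelled TET2KO stayed below the lowest labelled WT. Tomm20 encodes the receptor that recognises presequences. Its level was 75.2, 175 and 107 CPM in TET2KO and 418, 347 and 447 CPM in WT (log2 fold change -1.76 ± 0.32, trend-removed -2.13 ± 0.33, by coding length -0.86 ± 0.16). Tomm22, the central receptor that links the others to the pore, had 78.5, 165 and 102 CPM in TET2KO and 308, 285 and 329.9 CPM in WT (-1.42 ± 0.28, trend-removed -0.55 ± 0.12). Both receptors thus fell without overlap between the groups.

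Tomm7, another small subunit, had 42.7, 90.4 and 62.1 CPM in TET2KO, against 192, 149.9 and 204 CPM in WT, a log2 fold change of -1.48 ± 0.29. Its trend-removed value was -0.35 ± 0.12 by longest transcript but -0.03 ± 0.12 by coding length, where it did not pass the test. Tomm6, the remaining small subunit, had few counted reads, with 51, 51 and 68 in TET2KO and 49, 68 and 79 in WT. At 1.38, 1.70 and 2.16 CPM in TET2KO, against 2.35, 2.78 and 4.42 CPM in WT, it only just passed (-0.86 ± 0.33, edgeR, adjusted p = 0.0496). The trend-removed value was 0.37 ± 0.30. The predicted gene Gm21981, on the same strand, shares 76.0% of Tomm6's exon bases and held only 6, 5 and 1 reads in WT 1, 2 and 3. Reads that fit both genes may have been left uncounted, so the level of Tomm6 is uncertain.

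Tomm40 forms the pore of the complex and Tomm40l is its homologue. Tomm40 had 71.0, 60.7 and 70.9 CPM in TET2KO, against 48.2, 46.5 and 51.9 CPM in WT, a log2 fold change of 0.47 ± 0.15 (edgeR, adjusted p = 0.0267, trend-removed 0.28 ± 0.10). The groups did not overlap, but the rise passed in 2 of the 6 fits that leave out a library. With merged exon length Tomm40 passed as lower, at -0.91 ± 0.23, and by coding length its value of 0.02 ± 0.11 did not pass. Tomm40l had 32.7, 59.3 and 44.4 CPM in TET2KO, against 122, 105 and 131 CPM in WT (-1.39 ± 0.24, trend-removed -2.36 ± 0.37, by coding length -1.27 ± 0.19). The 2 pore genes therefore moved in opposite directions as counted: the ratio of Tomm40 to Tomm40l, in TPM, was 2.47, 1.16 and 1.82 in TET2KO and 0.451, 0.504 and 0.452 in WT. Nr1i3, on the opposite strand, overlaps 64.3% of Tomm40l's exon bases, and it held 88 to 155 reads in the libraries labelled WT.

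Tomm70a, the receptor for carrier precursors, was level in CPM. It had 81.6, 88.2 and 85.4 CPM in TET2KO and 82.6, 89.5 and 82.9 CPM in WT, with a log2 fold change of 0.00 ± 0.14 (edgeR, adjusted p = 0.99, trend-removed -0.22 ± 0.11). In TPM it was higher without overlap, at 58.4, 52.1 and 54.7 in TET2KO against 33.9, 40.7 and 31.9 in WT. On that scale the median log2 fold change of all tested genes was 0.41. Tomm34 encodes a cytosolic co-chaperone of Hsp70 and Hsp90 rather than a membrane subunit, and lies on chromosome 2 (164053540 to 164071169, GRCm38). It had 12.1, 5.70 and 11.6 CPM in TET2KO, against 2.64, 2.78 and 2.74 CPM in WT, and rose to 360.3% of the WT level (1.85 ± 0.32, edgeR, adjusted p = 0.0065, trend-removed 1.52 ± 0.25). It rose in all 6 fits that leave out a library. Tomm20l, a paralogue of Tomm20, had 0, 1 and 0 reads in TET2KO and 1, 1 and 1 in WT and was not tested. Tomm6os, with 17, 3 and 6 reads in TET2KO and 5, 8 and 7 in WT, was also below the filter.

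As counted, where 29.4% of all tested genes were lower, all 5 tested small TIM genes of the intermembrane space fell, with a median log2 fold change of -1.43. Their products form ring-shaped chaperones, of Timm9 with Timm10 and of Timm8 with Timm13. Timm8b (chromosome 9, 50603910 to 50605320, GRCm38) had 73.9, 193 and 114 CPM in TET2KO, against 483, 408 and 532 CPM in WT (-1.90 ± 0.35, edgeR, adjusted p = 0.0065, trend-removed -0.63 ± 0.13). Its partner Timm13 had 45.4, 77.7 and 57.2 CPM in TET2KO, against 144, 127 and 157 CPM in WT (-1.25 ± 0.23, trend-removed -0.72 ± 0.13). Neither gene's groups overlapped. Timm10 had 49.0, 109 and 68.3 CPM in TET2KO and 243, 212 and 276 CPM in WT (-1.69 ± 0.30, trend-removed -0.50 ± 0.12). Timm9 had 12.3, 25.0 and 15.9 CPM in TET2KO and 54.3, 39.8 and 48.9 CPM in WT (-1.43 ± 0.27, trend-removed -0.83 ± 0.16), and with coding length its value of -0.21 ± 0.13 did not pass.

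Timm8a1 is the mouse counterpart of the gene mutated in human deafness-dystonia syndrome. It had 7.04, 14.5 and 8.89 CPM in TET2KO, against 22.3, 20.4 and 27.5 CPM in WT (-1.21 ± 0.29, edgeR, adjusted p = 0.0094). Its trend-removed values of -0.38 ± 0.15, -0.30 ± 0.15 and -0.08 ± 0.14 by longest transcript, merged exons and coding length did not pass the test. Timm8b exceeded Timm8a1 by 28.8, 36.5 and 35.2 times in TET2KO and by 59.5, 55.1 and 53.1 times in WT, in TPM. The third paralogue, Timm8a2, had 0 reads in all 6 libraries.

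The carrier translocase TIM22 was split. Timm22, its channel, had 28.4, 52.7 and 36.0 CPM in TET2KO, against 84.9, 78.5 and 83.5 CPM in WT (-1.08 ± 0.24, edgeR, adjusted p = 0.0074, trend-removed -1.10 ± 0.20). Timm10b, a small TIM protein bound to that channel, had 13.4, 26.4 and 17.3 CPM in TET2KO, against 55.9, 48.7 and 62.7 CPM in WT (-1.55 ± 0.26, trend-removed -1.69 ± 0.25). By coding length the falls were smaller, at -0.46 ± 0.13 for Timm22 and -0.45 ± 0.12 for Timm10b. Timm29, a subunit of the animal complex that contacts TOM, stood at 64.5, 56.4 and 61.4 CPM in TET2KO, against 44.4, 45.5 and 44.1 CPM in WT. It rose as counted (0.45 ± 0.14, edgeR, adjusted p = 0.0259), in 2 of the 6 fits that leave out a library, and its trend-removed value was 0.13 ± 0.10 by longest transcript and 0.77 ± 0.14 by coding length.

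Of the 6 genes of the presequence translocase, 5 fell, with a median log2 fold change of -1.23, where 29.4% of all tested genes were lower. Timm23, the channel, was the most highly counted member, with 175, 417 and 247 CPM in TET2KO, against 841, 721 and 859 CPM in WT (-1.53 ± 0.32, edgeR, adjusted p = 0.0070, trend-removed -0.58 ± 0.14). The alternative channel partners Timm17a and Timm17b both fell. Timm17a had 147, 288 and 193 CPM in TET2KO and 494, 454 and 541 CPM in WT (-1.25 ± 0.27, trend-removed -1.91 ± 0.34), and Timm17b had 24.3, 44.3 and 29.5 CPM in TET2KO and 79.4, 65.0 and 82.4 CPM in WT (-1.21 ± 0.24, trend-removed -1.12 ± 0.20). By coding length the falls were smaller, at -0.39 ± 0.13 for Timm17a and -0.54 ± 0.14 for Timm17b. Their ratio in TPM overlapped between the groups, at 1.97, 2.10 and 2.12 in TET2KO and 2.02, 2.26 and 2.13 in WT. Timm21, which connects TIM23 with TOM and with the respiratory chain, had 37.1, 71.5 and 48.0 CPM in TET2KO and 138, 129 and 143 CPM in WT (-1.39 ± 0.25, trend-removed -0.60 ± 0.11).

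Timm50 receives presequences on the outer face of the inner membrane. It fell less, with 53.0, 80.5 and 58.2 CPM in TET2KO, against 121, 107 and 125 CPM in WT (-0.88 ± 0.20, edgeR, adjusted p = 0.0081, trend-removed -0.67 ± 0.14). Timm44, the anchor of the matrix Hsp70 motor, overlapped between the groups. It had 84.7, 96.9 and 95.7 CPM in TET2KO and 96.7, 103 and 110.4 CPM in WT (-0.16 ± 0.15, edgeR, adjusted p = 0.38). Its trend-removed value was 0.28 ± 0.11, which did not pass (adjusted p = 0.056), while with coding length it was lower, at -0.49 ± 0.14. Nearly identical copies of Timm23, Tomm20, Timm17a and Timm8a1 exist in the genome, most of them processed pseudogenes. For Timm23 they include Gm10273, annotated as protein-coding, at 99.9% over 1121 bases, and reads that fit a copy as well may have been lost or split, so these 4 values are less certain.

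The Tomm and Timm genes did not part clearly. These groups are by symbol and only roughly those of the outer and inner membrane. The Tomm group includes the cytosolic Tomm34, and the Timm group includes the small TIM genes of the intermembrane space. As counted, 6 of 9 Tomm and 12 of 14 Timm genes fell, with medians of -1.39 and -1.25. With the trend removed by longest transcript, 5 of 9 Tomm and 11 of 14 Timm genes were lower, with medians of -0.35 and -0.65, and by coding length 4 of 9 and 11 of 14, with medians of -0.03 and -0.48. The order of the 2 medians thus turned with the trend. Of all genes, 29.4% were lower as counted, 24.3% by longest transcript and 28.3% by coding length. Summed over the family, the Tomm genes held 765.2, 1296 and 892.6 TPM in TET2KO 1, 2 and 3, against 2026, 1916 and 2020 TPM in WT 1, 2 and 3. The Timm genes held 1317, 2330 and 1613 TPM in TET2KO, against 3437, 3284 and 3475 TPM in WT. Neither sum overlapped between the groups. Tomm genes averaged 984.6 ± 277.1 TPM in TET2KO and 1987 ± 61.9 TPM in WT, and Timm genes 1753 ± 521 TPM in TET2KO and 3399 ± 101 TPM in WT (SD, n = 3 each). The ratio of the Tomm sum to the Timm sum was 0.581, 0.556 and 0.553 in TET2KO and 0.590, 0.584 and 0.581 in WT. These ratios nearly touch, 0.5811 being the highest labelled TET2KO and 0.5814 the lowest labelled WT.

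**Figure D3:**
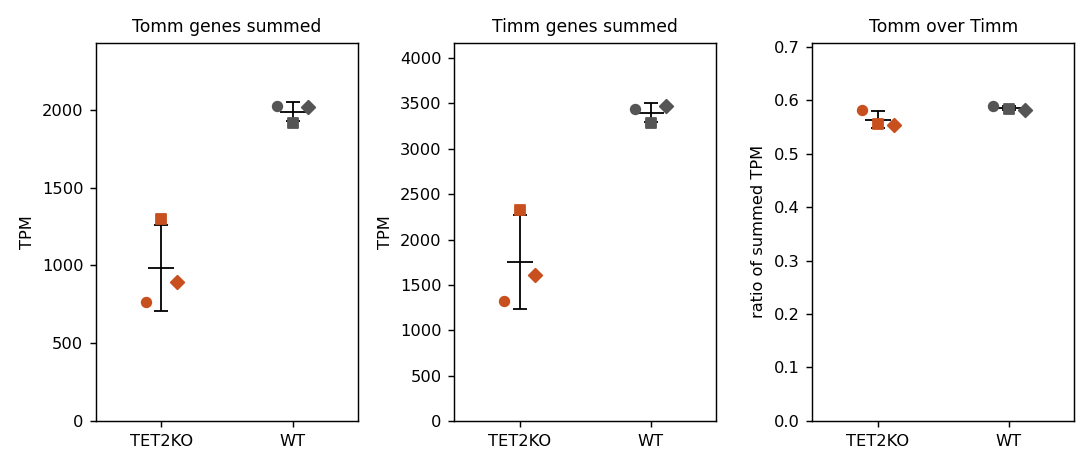
Summed TPM of the Tomm genes (left) and the Timm genes (middle) in each library, and the ratio of the 2 sums (right), in libraries labelled TET2KO (orange) and WT (grey), with mean and SD of 3 libraries per group. Both sums are lower in every library labelled TET2KO, while the ratio stays between 0.553 and 0.590 in all 6.

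The members differ widely in level. Per length, Timm8b was the highest, at 583 ± 227 TPM in TET2KO and 1433 ± 71.2 TPM in WT (SD, n = 3 each), and Tomm5 the next, at 415 ± 154 TPM in TET2KO and 1077 ± 44.2 TPM in WT. The channel gene Timm23 came next, with 374 ± 133 TPM in TET2KO and 708 ± 19.6 TPM in WT. The order of these 3 was the same in each of the 6 libraries. At the low end were Tomm34, with 8.07 ± 3.45 TPM in TET2KO and 1.41 ± 0.139 TPM in WT, and Tomm6, with 3.76 ± 0.748 TPM in TET2KO and 4.38 ± 1.24 TPM in WT. Their order is reversed between the groups, but the level of Tomm6 is uncertain because of the exon bases it shares with Gm21981.

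The members that fell are short. The median coding sequence was 369 nt for the 18 that fell and 513 nt for the 23 tested members, against 1386 nt for all tested genes, and the median longest transcript of the 23 was 1790 nt against 2996 nt. Across the 23 members the log2 fold change went with coding length (Spearman rho = 0.61) more closely than with transcript length (rho = 0.28) or GC content (rho = 0.39), given as a description of genes that share the same 6 libraries. Over all tested genes with a coding sequence rho was 0.62. The members that did not fall, Tomm34, Tomm40, Timm29, Tomm70a and Timm44, have coding sequences of 927, 1083, 798, 1833 and 1356 nt, and Timm50, which fell less than most, has 1059 nt. Tomm40l, with 924 nt, is as long as Tomm34 in coding sequence and had a log2 fold change of -1.39, against 1.85 for Tomm34.

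**Figure D4:**
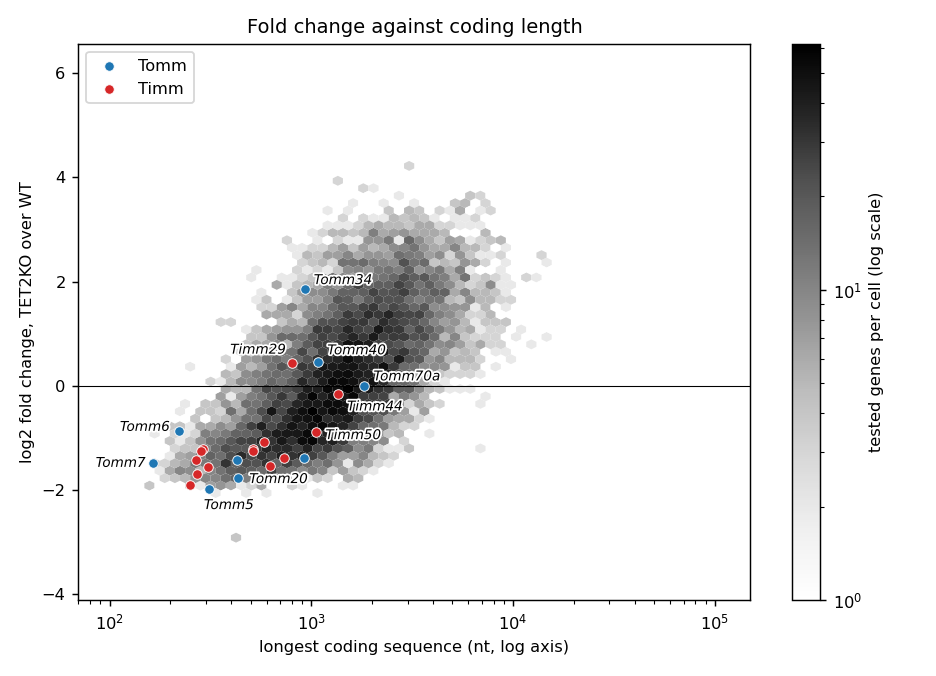
Log2 fold change as counted, TET2KO over WT, against the longest coding sequence (nt, log axis) for all tested genes with one (grey cells, shaded by number of genes on a log scale) and for the Tomm (blue) and Timm (red) members. The members that fell lie in the lower left of the cloud of all genes, and Tomm34 lies near its upper edge for genes of its length.

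Partners of import outside the Tomm and Timm families were taken from a list of 35 genes, all tested. As counted 21 fell, 9 rose and 5 passed in neither direction, with a median log2 fold change of -0.96, where 29.4% of all tested genes were lower and 33.4% higher. The trend-removed counts were 20 lower and 8 higher, with a median of -0.40, where 24.3% and 21.9% of all genes were. The partners that rose were thus no larger a share than among all genes as counted. In 25 of the 35 the gene passed in the same direction in both, and the share of all genes that did so is not given here. In the TIM23 motor, 6 of 7 genes fell and the Hsp70 itself rose. Hspa9, the mitochondrial Hsp70 that pulls precursors inwards, had 617, 413 and 553 CPM in TET2KO, against 209, 231 and 228 CPM in WT (1.25 ± 0.21, edgeR, adjusted p = 0.0065, trend-removed 1.45 ± 0.19). Grpel1, its nucleotide exchange factor, had 118, 235 and 154 CPM in TET2KO, against 495, 413 and 516 CPM in WT (-1.49 ± 0.28, trend-removed -1.65 ± 0.25, by coding length -0.91 ± 0.16). The TPM ratio of Hspa9 to Grpel1 was 4.69, 1.58 and 3.23 in TET2KO and 0.379, 0.502 and 0.396 in WT, without overlap. The J proteins that stimulate Hspa9 also fell, Dnajc15 with a log2 fold change of -2.01 ± 0.36 (trend-removed -2.58 ± 0.42, by coding length -1.13 ± 0.19) and Dnajc19 with one of -1.30 ± 0.24 (trend-removed -0.42 ± 0.11). So did Pam16, which tethers them (-1.57 ± 0.26, trend-removed -0.38 ± 0.11), and Romo1, a small subunit at the TIM23 channel (-1.32 ± 0.25, trend-removed -0.31 ± 0.11). Grpel2, a second exchange factor, fell as well (-0.91 ± 0.20, trend-removed -1.11 ± 0.19), but did not pass by coding length.

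Of the 3 matrix folding chaperones, 1 rose, 1 fell and Trap1, the mitochondrial Hsp90, did not pass as counted (0.05 ± 0.15, edgeR, adjusted p = 0.80). Trap1 passed in opposite directions in other versions, higher by merged exons, at 0.35 ± 0.13, and lower by coding length, at -0.84 ± 0.19. Hspd1, the Hsp60 barrel, had 276, 183 and 238 CPM in TET2KO, against 90.8, 107 and 92.2 CPM in WT (1.26 ± 0.20, edgeR, adjusted p = 0.0065, trend-removed 1.67 ± 0.21). Hspe1, its Hsp10 lid, had 108, 274 and 148 CPM in TET2KO, against 595, 499.8 and 634 CPM in WT (-1.70 ± 0.35, trend-removed -0.58 ± 0.14). Hspd1 and Hspe1 kept their direction in all 4 versions of the fit.

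In the disulfide relay that traps small TIM proteins by oxidising them, both genes fell, as did 29.4% of all tested genes. Chchd4, the oxidoreductase, had 33.0, 68.0 and 43.2 CPM in TET2KO, against 119, 111 and 119.9 CPM in WT (-1.28 ± 0.26, edgeR, adjusted p = 0.0067, trend-removed -1.30 ± 0.22, by coding length -0.36 ± 0.12). Gfer, which reoxidises it, also fell (-0.89 ± 0.24, trend-removed -0.62 ± 0.18), but did not pass by coding length. In the outer membrane sorting machinery, Samm50, the barrel that inserts beta-barrel proteins such as Tomm40, had 234, 240.2 and 244 CPM in TET2KO and 209.6, 206 and 214 CPM in WT. It did not pass as counted (0.19 ± 0.16, edgeR, adjusted p = 0.31) and was lower with the trend removed (-0.86 ± 0.21). By coding length its value of -0.20 ± 0.12 did not pass. Mtx2, a metaxin of the same complex, fell (-1.03 ± 0.26, trend-removed -0.61 ± 0.15), as did Mtch2, an insertase for alpha-helical proteins (-1.32 ± 0.29, trend-removed -0.99 ± 0.19). Mtx3 rose (1.01 ± 0.25, trend-removed 0.55 ± 0.18). Dnajc11, a J protein that joins this complex to the contact sites, rose as counted (1.35 ± 0.22, trend-removed 0.69 ± 0.13) and did not pass with merged exon length (-0.21 ± 0.19).

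Among the 7 genes that process imported presequences, 4 fell and 3 rose as counted, where 29.4% of all tested genes were lower and 33.4% higher. Immp1l, a subunit of the inner membrane peptidase, fell (-2.03 ± 0.42, trend-removed -1.03 ± 0.21), as did Mipep, the intermediate peptidase (-0.79 ± 0.23, trend-removed -0.88 ± 0.20). Pmpca, a subunit of the matrix processing peptidase (0.61 ± 0.16, trend-removed 0.50 ± 0.11), and Pitrm1, which degrades cleaved presequences (1.15 ± 0.21, trend-removed 0.79 ± 0.16), rose, though neither passed by coding length. Oxa1l, the insertase for proteins made inside mitochondria, rose as well (1.18 ± 0.23, trend-removed 1.10 ± 0.19). Agk, a lipid kinase that is also a subunit of TIM22, rose as counted (0.63 ± 0.19, trend-removed 0.85 ± 0.17) and did not pass with merged exon length (-0.43 ± 0.23). Of the 7 MICOS genes, whose products hold the cristae junctions and contact TOM, 6 fell as counted, against the same 29.4% of all tested genes. Of these, 4 were also lower with the trend removed by longest transcript, namely Micos13 (-1.73 ± 0.31, trend-removed -0.59 ± 0.12), Micos10 (-1.61 ± 0.30, trend-removed -1.59 ± 0.24, by coding length -0.39 ± 0.13), Apoo (-1.54 ± 0.32, trend-removed -0.49 ± 0.13) and Chchd6 (-1.48 ± 0.27, trend-removed -0.83 ± 0.16).

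**Figure D5:**
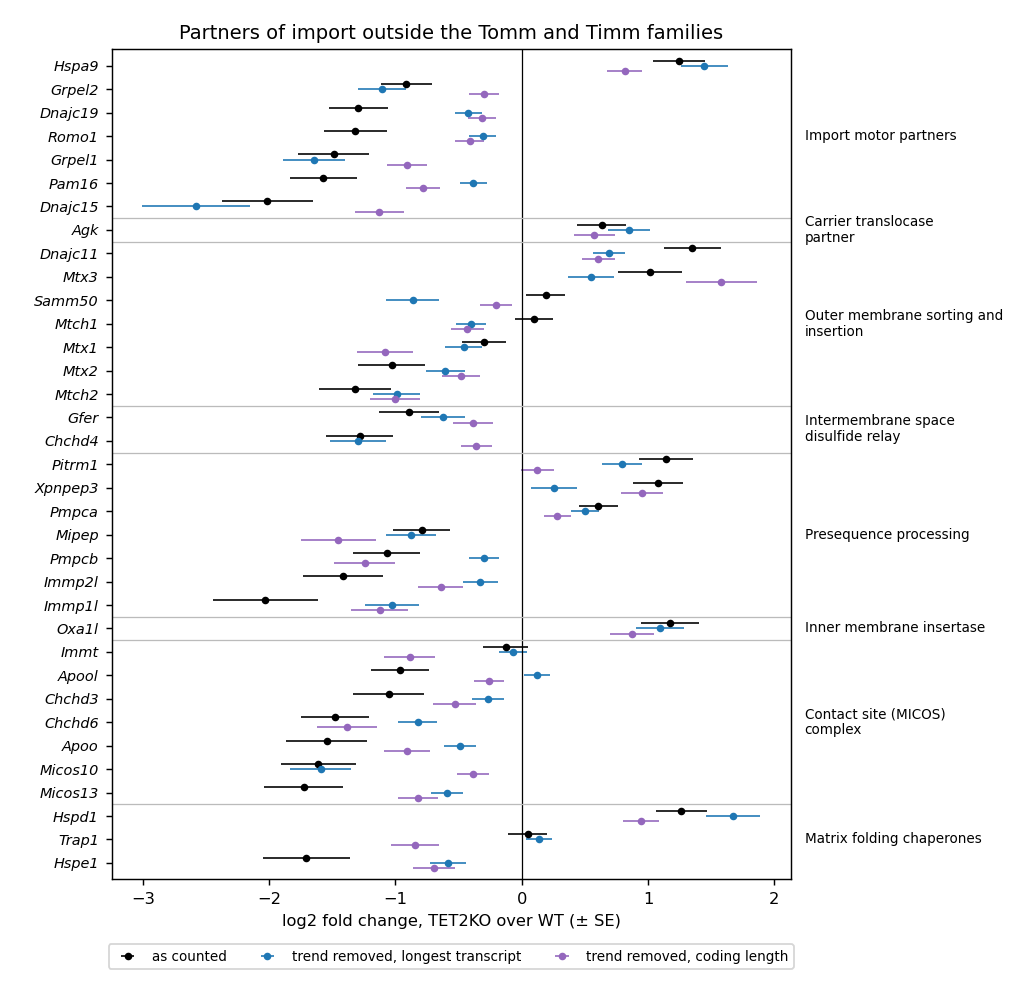
Log2 fold change, TET2KO over WT, ± SE, of the 35 listed import partners, grouped by role, as counted (black) and with the length and GC trend removed by longest transcript (blue) or coding length (purple). The 9 partners that rose as counted, Hspa9 and Hspd1 among them, lie right of 0 in all 3 versions shown, and most other partners lie left of it.

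Markers of other cell types were read in the same way, where 29.4% of all tested genes were lower and 33.4% higher as counted, and 24.3% lower and 21.9% higher with the trend removed. Endothelial markers summed to 269.7 to 487.9 TPM in TET2KO and 181.9 to 203.8 TPM in WT, with 6 of 8 higher and 2 lower as counted, and 5 higher and 1 lower with the trend removed. Macrophage markers summed to 25.94 to 53.43 TPM in TET2KO and 11.85 to 18.31 TPM in WT, with 3 of 5 higher as counted but 1 higher and 1 lower with the trend removed. All 5 red blood cell markers were lower both as counted and with the trend removed, with 565.8 to 2123 TPM in TET2KO and 2928 to 14100 TPM in WT. Of the 12 cardiomyocyte markers 5 were higher and 6 lower as counted, and 6 higher and 3 lower with the trend removed. As counted they differed by length: the 5 higher ones (Actc1, Actn2, Myh6, Ryr2 and Ttn) have coding sequences of 1131 to 105639 nt. The 6 lower ones (Tnni3, Myl2, Myl3, Pln, Ckm and Mb) have 156 to 1143 nt. Fibroblast markers overlapped in sum, at 679.3 to 745.5 TPM in TET2KO and 680.7 to 769.5 TPM in WT, with 3 of 6 higher and 3 lower as counted, and 1 higher and 0 lower with the trend removed. Smooth muscle and pericyte markers also overlapped in sum, at 801.2 to 1134 TPM in TET2KO and 871.3 to 1017 TPM in WT. Of these 6, 1 was higher and 3 lower as counted, and 1 higher and 4 lower with the trend removed. Of 4 adipocyte markers 2 were tested, with 1 lower as counted and 0 with the trend removed. Of 6 skeletal muscle markers 3 were tested, with 2 lower as counted, and 1 higher and 1 lower with the trend removed. The part of these marker values in those of the translocases was not tested.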

How the data were processed

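Poly(A) RNA was read as pairs of 150 nt on an Illumina NovaSeq instrument, with 1 batch label for all 6 libraries, per the labels' protocols. DESeq2, Subread 1.5.2, featureCounts, STAR 2.5.2b and Trimmomatic 0.36 are named, with GRCm38, per the submitters' processing notes, while the sources used here give neither annotation release nor strand setting. Counts per gene were deposited unnormalised by the authors, with TPM values (equal totals in all libraries) and a comparison table with log2 fold changes, p-values and a normalised signal (counts over 1 size factor per library), per the file headers and values. Columns were matched to samples by library name, leaving 0 unmatched.

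Counts were tested with edgeR 4.0.16 in R 4.3.3 (quasi-likelihood F-test, robust, TMM, filterByExpr), with no term but group and p-values adjusted by Benjamini-Hochberg over 14370 genes at 0.05. TMM factors were 1.22, 1.12 and 1.15 for TET2KO and 0.859, 0.922 and 0.808 for WT. An SE is the size of a log2 fold change divided by the root of its F value. CPM uses the TMM factors. Families were described by counts and medians, without a test of their own. The length and GC trend was fitted per library with mgcv 1.9.3 (basis size 6 per axis, prior count 2) and entered as offsets, for 14341 genes with GENCODE M21 lengths. Such a trend removes real differences that follow length as well as technical ones. The version by coding length (12929 genes) was added after seeing the data. The fits were tested on simulated counts. Alternatives were RLE factors, total reads, DESeq2 1.42.0, limma 3.58.1 (voom, and log2 of TPM with a pseudocount of 1), no filter, a replicate block, and each library left out.

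The members and the lists were chosen with earlier results of these data known. Every member is named. Listed partners are named where they passed in the same direction as counted and with the trend removed, with Hspa9, Chchd4 and Samm50 in any case. Micos10 and Micos13 are under older symbols in the count table and were matched through RefSeq synonyms. In the authors' deposited table the log2 fold change was -2.03 for Tomm5, -1.57 for Timm23 and 1.79 for Tomm34.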

Additional observations from a re-analysis of the deposited data

How the results depend on the processing

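Of 1127 pairs of a named gene and an alternative setting, 990 kept their direction and side of the threshold, 107 lost the call, 5 gained one and 25 turned direction. All genes called numbered 9037 as counted, 5722 with the replicate block and the trend together, and 4020 to 11178 with a library left out, with or without the trend. Members that rose numbered 3 as counted, 1 without a filter, 5 on TPM, 1 with the replicate block, 1 with the block and the trend, and 1 to 3 with a library left out. Of all genes, 33.4%, 16.0%, 49.9%, 28.3% and 19.1% were higher in the first 5 of these settings. The shares of all genes, higher or lower, with a library left out are not given here. The Tomm median of -1.39 became -0.76 on TPM, -0.35 by longest transcript, -0.51 by merged exons, -0.34 with block and trend, -0.026 by coding length, and -1.61 to -0.29 with a library left out. The Timm median of -1.25 became -0.64, -0.65, -0.80, -0.66 and -0.48 in that order, and -1.53 to -0.56 with a library left out. The partners' median of -0.96 became -0.36 on TPM, -0.40 by longest transcript, -0.41 with block and trend, -0.43 by coding length, and -1.21 to -0.34 with a library left out, and the partners that fell numbered 12 to 23 with a library left out. The cause of these shifts was not tested.

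Among the 49 genes in these pairs, which leave out Trap1, those that turned direction were Timm44 (0.47 on TPM, 0.28 by longest transcript without passing, and -0.22 to 0.32 with a library left out), Tomm40 (-0.91 by merged exons), Tomm6 (0.37 by longest transcript, 0.16 by merged exons, 0.36 with block and trend, 0.42 by coding length, and -1.05 to 0.57 with a library left out), Tomm70a (-0.28 to 0.065 with a library left out), Agk (-0.43 by merged exons), Dnajc11 (-0.21 by merged exons) and Samm50 (-0.86 by longest transcript, -0.75 by merged exons, -0.20 by coding length without passing, -0.91 with block and trend, and -1.17 to 0.24 with a library left out). These ranges span fits with and without the trend. As counted, with each library left out in turn, 17 of the 18 members that fell still fell, the exception being Tomm6, which passed in 1 of 6. The same share among all genes that fell is not given here. Without TET2KO 3, or without any of WT 1, 2 and 3, Tomm34 was the sole member that rose. No pairing of the libraries by replicate number was seen. Deviations of same-numbered libraries correlated at 0.044, -0.29 and -0.034, and those of differently numbered ones at -0.33 to 0.32. With 3 libraries in each group these values cannot exclude pairing. The replicate block left 7618 genes called. Tomm20l, Tomm6os and Timm8a2 had too few reads to be tested.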
